A study of Mus musculus with 12 samples.

Results

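The 10 genes described here, Prdm1, Irf4, Xbp1, Creb3l2, Jchain, Mzb1, Derl3, Edem1, Sdc1 and Tnfrsf17, are genes by which plasma cells are known, and they were chosen by their mouse symbols out of the 18221 genes measured in the spleen. All 10 were found in the expression tables. The values are RPKM, the reads on a transcript per kilobase of its length, scaled to the number of mapped reads of the library, and the RPKM of all transcripts of a gene were added together. RPKM is a value per length, so levels of different genes can be set side by side. The study asked whether fecal microbiota transplantation (FMT) changes a spleen injured by busulfan, an alkylating anti-cancer drug that damages blood-forming cells. All mice were males of the outbred ICR stock, aged 3 weeks at the start and 8 weeks when the spleen was taken, and 12 were sequenced. Con-sa mice (n = 3) were dosed with saline by mouth and received no busulfan, and B-sa mice (n = 3) had a single injection of busulfan at 40 mg/kg followed by saline. B+Con-FMT mice (n = 3) had the same busulfan injection and then small-intestine contents of control donor mice, and B+A10-FMT mice (n = 3) had busulfan and then contents of donors dosed with alginate oligosaccharide (AOS) at 10 mg/kg. FMT was given for 2 weeks, after which the mice were kept for another 3 weeks, and the contents of each donor group had been pooled, so that every recipient of a group shared 1 inoculum. The labels number 3 samples in each group without naming animals. They are called mice here, and p-values measure only the spread between these samples, which may be technical.

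Plasma cells are the end stage of the B cell lineage and secrete antibody, and in the spleen they sit mainly in the red pulp and at its border with the follicles. A B cell becomes one when the transcription factors Irf4 and Prdm1 switch off the B cell program and Xbp1 enlarges the endoplasmic reticulum (ER), where antibody chains are folded, checked and assembled. Whole spleen was measured, so a lower value can mean fewer plasma cells or less RNA of that gene in each cell, and these cannot be told apart. Several of the genes are also used by other cells, Xbp1, Creb3l2 and Edem1 in most secretory cells, Irf4 in activated lymphocytes and Sdc1 in epithelium.

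All 10 genes were expressed in all 12 mice. Jchain was the highest, at a mean of 443 RPKM over the 12 mice, followed by Mzb1 at 202, Xbp1 at 60.1, Edem1 at 35.2, Irf4 at 19.9 and Derl3 at 12.2. Creb3l2 stood at 6.49, Sdc1 at 4.41, Prdm1 at 2.89 and Tnfrsf17 at 2.44 RPKM. Within a gene, the highest mouse was between 1.35 times (Xbp1) and 3.40 times (Tnfrsf17) the lowest. The low genes rested on few reads: from the steps between the smallest RPKM values, the libraries held an estimated 14800000 to 15600000 mapped reads, which puts 14 to 45 reads on the curated Tnfrsf17 transcript of a mouse, against 5733 to 11223 on that of Jchain. Globin transcripts took 23.3% to 32.4% of the summed RPKM of a mouse.

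**Figure D1:**
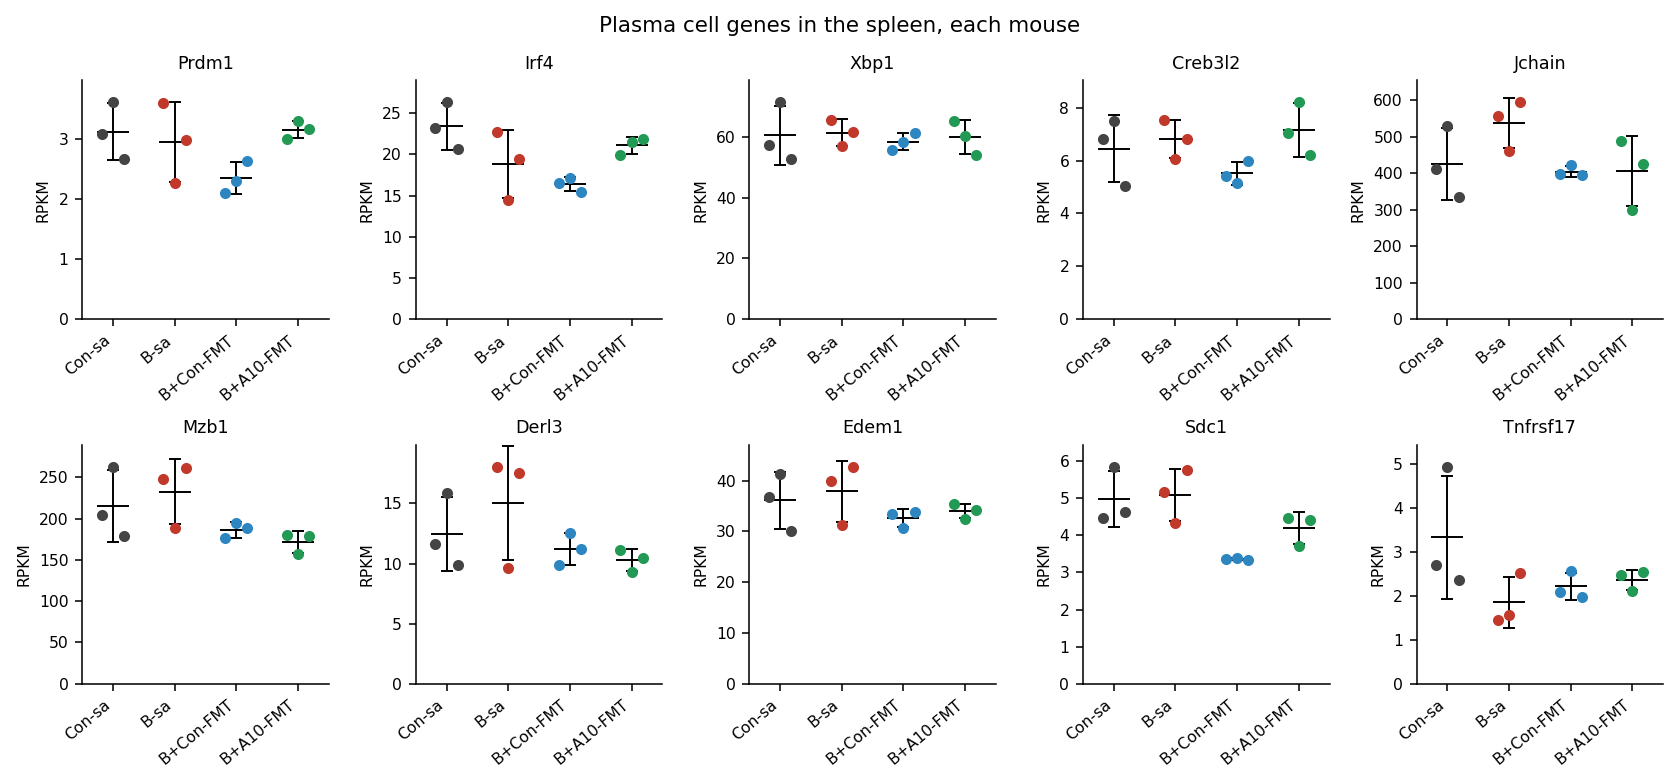
RPKM of the 10 plasma cell genes (vertical axes from 0, 1 scale per gene) in the 4 groups. Each point is 1 mouse, the horizontal line is the group mean and the bar is ± 1 SD (n = 3). The B+Con-FMT mice lie close together at or near the bottom for Prdm1, Irf4, Creb3l2 and Sdc1, and most other groups overlap.

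Among the 12671 genes that reached 1 RPKM in 3 or more mice, which were the genes tested and included all 10 plasma cell genes, differences were estimated on log2(RPKM + 1) by limma with Benjamini-Hochberg adjustment. Adjusted p under 0.05 counted as a call. Adding 1 to RPKM makes the fold changes of the low genes smaller than they are. Across all 6 pairs of groups, 2 of the 60 differences of the plasma cell genes were called: Irf4 and Sdc1 were lower in B+Con-FMT spleens relative to Con-sa spleens. Of all genes tested, 8.87% were called in that comparison, and the share ran from 0.41% to 14.5% over the 6 comparisons. In a test of any difference among the 4 groups, Sdc1 alone of the 10 was called (moderated F = 8.63, adjusted p = 0.025 by limma), where 17.1% of all genes tested were called.

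Irf4 is a transcription factor needed to start and to keep the plasma cell program. Its level was 23.3, 26.4 and 20.7 RPKM in the Con-sa mice, 22.7, 14.4 and 19.5 in B-sa, 16.5, 17.1 and 15.5 in B+Con-FMT, and 19.96, 21.5 and 21.9 in B+A10-FMT. Each B+Con-FMT mouse lay below each Con-sa mouse and below each B+A10-FMT mouse, whereas B-sa held the lowest of all 12 mice and a mouse at the level of Con-sa. In B+Con-FMT compared with Con-sa, Irf4 was lower by a log2 fold change of -0.49 (95% interval -0.77 to -0.21, limma adjusted p = 0.040), and RPKM + 1 fell by 28.7%. In B+A10-FMT compared with B+Con-FMT the log2 fold change was 0.35 (0.07 to 0.63, adjusted p = 0.102) and did not pass. B-sa compared with Con-sa gave -0.31 (-0.60 to -0.03, adjusted p = 0.121), which became a call, at -0.45 with adjusted p = 0.025, when the B-sa mouse 1 was left out and shrank to -0.14 (adjusted p = 0.392) without B-sa mouse 2. The call in B+Con-FMT relative to Con-sa was near the threshold: it was lost without Con-sa mouse 1 or 2, without any 1 of the B+Con-FMT or B+A10-FMT mice (adjusted p = 0.050 to 0.126 over these 8 fits), with no filter on low genes (adjusted p = 0.059) and with median-of-ratios scaling (adjusted p = 0.054). The log2 fold change stayed between -0.57 and -0.40 whichever mouse was left out.

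Prdm1 encodes Blimp-1, the repressor that shuts down the B cell program. It measured 3.08, 3.61 and 2.66 RPKM in Con-sa, 3.59, 2.27 and 2.98 in B-sa, 2.10, 2.30 and 2.63 in B+Con-FMT, and 3.0, 3.29 and 3.16 in B+A10-FMT. The B+Con-FMT mice were again below all Con-sa and all B+A10-FMT mice, the nearest Con-sa mouse standing at 2.66 against 2.63 RPKM. The log2 fold change was -0.30 (95% interval -0.56 to -0.03, limma adjusted p = 0.137) in B+Con-FMT relative to Con-sa and 0.31 (0.05 to 0.58, adjusted p = 0.112) in B+A10-FMT relative to B+Con-FMT, and neither was called. B-sa and Con-sa differed by -0.07 (-0.33 to 0.20).

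The tables list transcripts apart, and for Irf4 and Prdm1 the curated and the predicted RefSeq models differed in how they were ordered by group. The curated Irf4 model, NM_013674.1, stood at 13.5, 14.7 and 11.7 RPKM in Con-sa, 10.9, 6.63 and 11.6 in B-sa, 7.47, 6.42 and 5.46 in B+Con-FMT, and 10.8, 12.1 and 14.6 in B+A10-FMT. The predicted model XM_006516560.1 held the rest of the Irf4 signal and ranged from 7.24 to 11.7 RPKM, with overlap between every pair of groups. The curated model carried 39.4% ± 5.3 (SD, n = 3) of Irf4 RPKM in B+Con-FMT, 56.8% ± 1.1 in Con-sa, 51.2% ± 7.3 in B-sa and 59.1% ± 6.9 in B+A10-FMT. In a limma fit over all 25867 transcripts tested, a fit chosen after the data had been seen, NM_013674.1 differed by a log2 of -0.94 (95% interval -1.36 to -0.53, adjusted p = 0.063) in B+Con-FMT relative to Con-sa and by 0.86 (0.44 to 1.28, adjusted p = 0.077) in B+A10-FMT relative to B+Con-FMT. That fit called 0.445% and 0.591% of all transcripts in these comparisons.

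For Prdm1 the curated model NM_007548.4 measured 2.38, 2.78 and 2.62 RPKM in Con-sa, 3.45, 1.82 and 2.72 in B-sa, 0.46, 1.39 and 1.38 in B+Con-FMT, and 2.79, 3.02 and 3.0 in B+A10-FMT. The highest B+Con-FMT mouse was below the lowest mouse of every other group. The predicted model XM_006512505.2 was at 1.44, 0.15 and 1.01 RPKM in B+Con-FMT, at most 0.64 in Con-sa and B-sa, and listed at 0 in all B+A10-FMT mice. In the fit over transcripts NM_007548.4 differed by a log2 of 0.96 (95% interval 0.48 to 1.44, limma adjusted p = 0.080) in B+A10-FMT relative to B+Con-FMT and by -0.83 (adjusted p = 0.124) in B+Con-FMT relative to Con-sa. When genes were summed over curated (NM) transcripts only, Prdm1 and Irf4 were both called in B+A10-FMT relative to B+Con-FMT (log2 0.96 and 0.86, adjusted p = 0.030 and 0.031) and Prdm1 was called in B+Con-FMT relative to Con-sa (adjusted p = 0.0499), where Irf4 stayed called (adjusted p = 0.023). Of the 11598 genes tested with curated transcripts only, 546 were called in the first of these comparisons and 382 in the second. The curated Prdm1 model rested on an estimated 27 to 203 reads per mouse. Models of a gene share most of their bases, and the sources used here do not state how reads that fit several models were shared out.

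**Figure D2:**
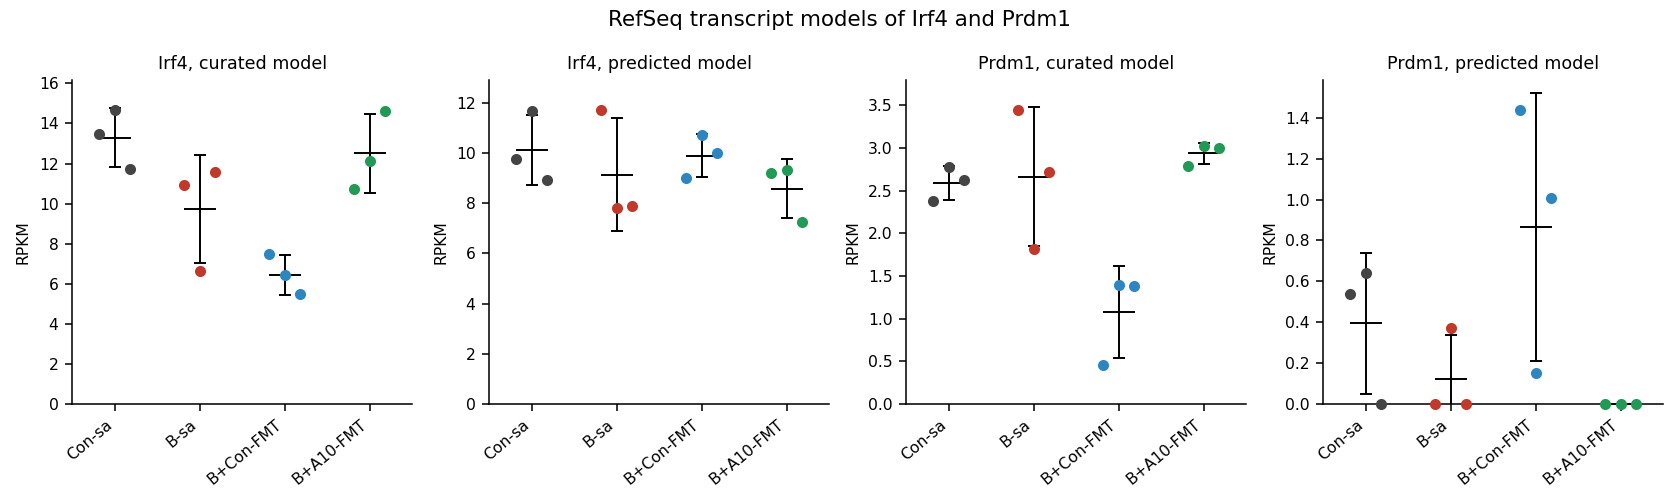
RPKM of single RefSeq transcript models of Irf4 (NM_013674.1 and XM_006516560.1) and Prdm1 (NM_007548.4 and XM_006512505.2) by group, with 1 point per mouse, the group mean as a line and ± 1 SD as a bar (n = 3). The curated models are lowest in B+Con-FMT, the predicted Irf4 model overlaps in all groups, and the predicted Prdm1 model has its highest mean in B+Con-FMT.

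Xbp1, the transcription factor that widens the secretory pathway, is read in different forms. When unfolded protein collects in the ER, the enzyme Ern1 (IRE1) cuts a short stretch out of the Xbp1 mRNA in the cytoplasm, and only the joined message encodes the strong activator. The stretch lies in coding exon 4 of the gene, is 26 bases long and stands on the plus strand of GRCm38 at chr11:5524279-5524304, within the window chr11:5524254-5524329 printed here. It is shown because it is the stretch by which RefSeq's unspliced (NM_013842.3) and spliced (NM_001271730.1) forms are known to differ. The letters were read from the GENCODE M21 transcript, since the expression tables hold no sequences, and the spliced line is that sequence without the stretch. Capitals mark the bases that are cut out.
Xbp1 unspliced: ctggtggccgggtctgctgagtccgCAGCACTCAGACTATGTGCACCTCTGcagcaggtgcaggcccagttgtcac
Xbp1 spliced: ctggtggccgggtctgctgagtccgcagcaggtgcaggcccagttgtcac

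No difference in total Xbp1 passed the test. It measured 57.5, 71.5 and 52.9 RPKM in Con-sa, 65.6, 56.9 and 61.6 in B-sa, 55.6, 58.5 and 61.2 in B+Con-FMT, and 65.3, 60.5 and 54.1 in B+A10-FMT. All groups overlapped, and the log2 fold changes of the 6 comparisons lay between -0.07 and 0.03, the widest 95% bounds being -0.29 and 0.25. The unspliced form NM_013842.3 lay between 43.2 and 63.1 RPKM, with overlap between all groups.

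The spliced form, NM_001271730.1, was highest in the B-sa mice. Its RPKM was 5.20, 8.40 and 8.06 in Con-sa, 9.50, 13.7 and 10.7 in B-sa, 3.76, 5.55 and 6.76 in B+Con-FMT, and 5.05, 8.47 and 7.63 in B+A10-FMT. Every B-sa mouse was above every mouse of the other groups. In the fit over transcripts the log2 fold change was 0.59 (95% interval 0.07 to 1.12, limma adjusted p = 0.244) in B-sa relative to Con-sa, -0.97 (-1.49 to -0.44, adjusted p = 0.232) in B+Con-FMT relative to B-sa and -0.62 (-1.15 to -0.10, adjusted p = 0.294) in B+A10-FMT relative to B-sa. None of these passed, in comparisons where 0.634%, 0.0232% and 0.0619% of all transcripts were called, and the 3 comparisons share the B-sa mice. As a share of all Xbp1 RPKM, the spliced form made up 9.05%, 11.8% and 15.2% in the Con-sa mice and 14.5%, 24.1% and 17.3% in the B-sa mice. It made up 6.76%, 9.49% and 11.04% in B+Con-FMT and 7.74%, 14.0% and 14.1% in B+A10-FMT. The shares of B-sa and Con-sa overlapped, since the highest Con-sa mouse exceeded the lowest B-sa mouse. An estimated 113 to 421 reads per mouse were credited to the spliced form, taking the length of the GENCODE transcript for both forms, and how the reads they share were divided is not stated in the sources used here.

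**Figure D3:**
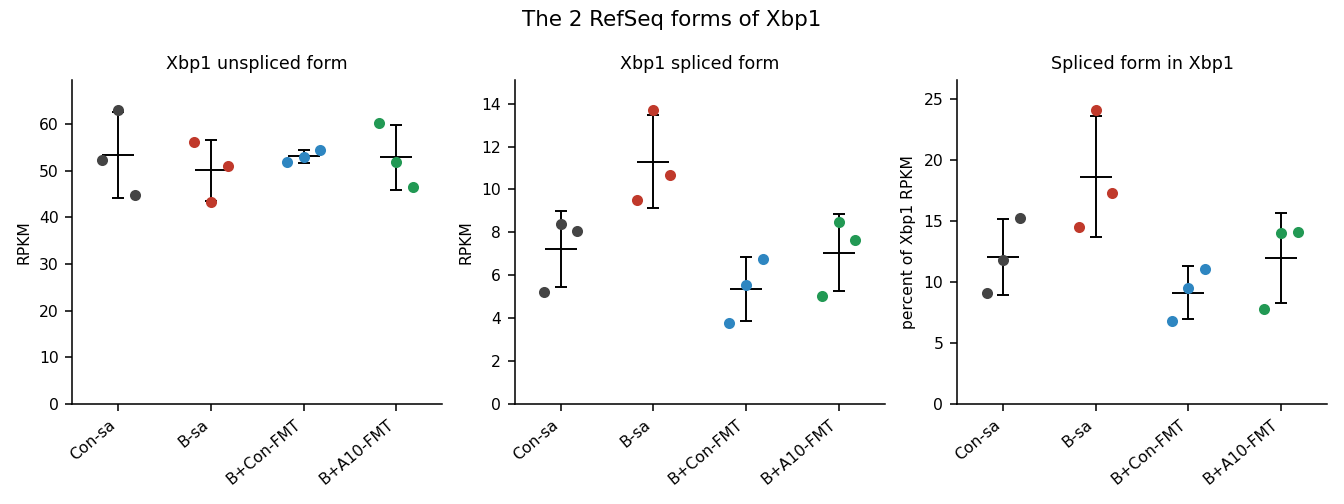
RPKM of the unspliced and the spliced RefSeq form of Xbp1, and the spliced form in percent of all Xbp1 RPKM (axes from 0), by group. Points are mice, lines are group means and bars are ± 1 SD (n = 3). The unspliced form overlaps in all groups, and the 3 B-sa mice are the highest of the 12 for the spliced form.

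Creb3l2 is a membrane-bound transcription factor released to act on secretory genes. It stood at 6.80, 7.50 and 5.05 RPKM in Con-sa, 7.52, 6.08 and 6.83 in B-sa, 5.42, 5.15 and 6.0 in B+Con-FMT, and 7.04, 8.22 and 6.22 in B+A10-FMT. The B+Con-FMT mice were below all B-sa and all B+A10-FMT mice and overlapped Con-sa. The log2 fold change was 0.32 (95% interval 0.05 to 0.59, limma adjusted p = 0.117) in B+A10-FMT relative to B+Con-FMT and -0.26 (-0.53 to 0.01, adjusted p = 0.299) in B+Con-FMT relative to B-sa, and neither was called.

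Of the genes of antibody assembly, Jchain encodes the joining chain of polymeric IgM and IgA. Its level was 412, 530.4 and 334 RPKM in Con-sa, 557, 461 and 595 in B-sa, 397, 421 and 395 in B+Con-FMT, and 489, 300.0 and 426 in B+A10-FMT. The means were 426 ± 99, 538 ± 69, 404 ± 15 and 405 ± 96 RPKM (SD, n = 3). B-sa had the highest mean, and its mice were above all B+Con-FMT mice, but they overlapped Con-sa and B+A10-FMT. The log2 fold change was 0.35 (95% interval -0.09 to 0.80, limma adjusted p = 0.258) in B-sa relative to Con-sa, -0.40 (-0.85 to 0.04, adjusted p = 0.324) in B+Con-FMT relative to B-sa and -0.43 (-0.88 to 0.02, adjusted p = 0.222) in B+A10-FMT relative to B-sa. The first of these fell to 0.19 without Con-sa mouse 3 and the last shrank to -0.23 without B+A10-FMT mouse 2.

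Mzb1 encodes a chaperone of the ER that helps to assemble IgM and IgA. It measured 204, 263 and 179 RPKM in Con-sa, 248, 188 and 262 in B-sa, 176, 195 and 189 in B+Con-FMT, and 180.0, 157 and 178 in B+A10-FMT. The B+A10-FMT mice were all below the B-sa mice, with a log2 fold change of -0.42 (95% interval -0.74 to -0.11, limma adjusted p = 0.105) that was not called. Con-sa ran from below the lowest to above the highest B-sa mouse, and the log2 fold change of B-sa relative to Con-sa was 0.12 (-0.20 to 0.43).

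Derl3 and Edem1 belong to the pathway that pulls misfolded chains out of the ER for degradation, Derl3 as a membrane component of the export machinery and Edem1 as a recognizer of misfolded glycoproteins. Derl3 measured 11.7, 15.8 and 9.89 RPKM in Con-sa, 18.1, 9.61 and 17.5 in B-sa, 9.86, 12.5 and 11.2 in B+Con-FMT, and 11.1, 9.28 and 10.5 in B+A10-FMT. The B-sa mice 1 and 3 were the highest of the 12 while B-sa mouse 2 was the second lowest, so the widest interval of the 10 genes came from Derl3. B-sa relative to Con-sa gave a log2 fold change of 0.23 (95% interval -0.27 to 0.73) and B+A10-FMT relative to B-sa gave -0.46 (-0.96 to 0.04, limma adjusted p = 0.233). With 1 mouse left out, the first ran from 0.08 to 0.50 and the second from -0.74 to -0.32 (adjusted p = 0.051 to 0.439), with no call.

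The promoter of Derl3 is shown because the ER stress response element, the binding motif of the XBP1 and ATF6 factors, was found in it and in no other of the promoters searched, which were those of 9 of the 10 genes (all but Mzb1). The motif, written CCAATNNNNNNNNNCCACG and looked for on both strands, was present in 39 of 32851 RefSeq promoters of GRCm38.p6 (0.119%), each running from 250 bases before the start to 50 after it. A second motif of XBP1, TGACGTGG, was in 0.676% of promoters and in 0 of the 9. In the 250 bases before the Derl3 start, at chr10:75893148-75893397 on the plus strand, capitals mark the match, which reads on the minus strand and spans the bases 156 to 138 before the start. The match is a match of letters only.
Derl3: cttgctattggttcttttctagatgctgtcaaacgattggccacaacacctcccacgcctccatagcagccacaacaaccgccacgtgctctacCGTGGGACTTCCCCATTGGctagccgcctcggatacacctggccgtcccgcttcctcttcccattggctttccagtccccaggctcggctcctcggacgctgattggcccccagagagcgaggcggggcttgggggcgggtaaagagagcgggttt

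Edem1 stood at 36.8, 41.4 and 30.1 RPKM in Con-sa, 39.9, 31.2 and 42.7 in B-sa, 33.5, 30.6 and 33.9 in B+Con-FMT, and 35.3, 32.5 and 34.3 in B+A10-FMT. All groups overlapped, and the log2 fold changes of the 6 comparisons lay between -0.20 and 0.07. The curated model NM_138677.2 was 25.9, 30.2 and 17.6 RPKM in Con-sa and between 13.4 and 22.5 in the 9 mice given busulfan, and the predicted model XM_006505746.3 was 7.21, 7.36 and 9.87 in Con-sa and between 8.63 and 16.2 in the others. In the fit over transcripts the smallest adjusted p of either model was 0.176 (limma, NM_138677.2 in B+Con-FMT relative to Con-sa, log2 -0.55), and in the fit over genes with curated transcripts only, where this model alone stands for Edem1, it was 0.090.

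Of the surface genes, Sdc1 encodes syndecan-1 (CD138), the proteoglycan by which plasma cells are sorted. It measured 4.48, 5.85 and 4.62 RPKM in Con-sa, 5.17, 4.34 and 5.75 in B-sa, 3.36, 3.38 and 3.33 in B+Con-FMT, and 4.48, 3.71 and 4.41 in B+A10-FMT. The B+Con-FMT mice were the 3 lowest of the 12 and were separated from every other group, and their SD of 0.025 RPKM was the smallest of any group. In B+Con-FMT compared with Con-sa Sdc1 was lower by a log2 fold change of -0.45 (95% interval -0.68 to -0.22, limma adjusted p = 0.024), and RPKM + 1 fell by 26.8%. Against B-sa the log2 fold change was -0.48 (-0.71 to -0.25, adjusted p = 0.058), just short of a call, and it passed without Con-sa mouse 2 (adjusted p = 0.046) and with equal totals outside the globin genes (adjusted p = 0.045). The adjusted p was 0.374 (log2 -0.36) with curated transcripts only, 0.186 with the acinar level as a covariate and up to 0.189 with 1 mouse left out. B+A10-FMT relative to B+Con-FMT gave 0.25 (0.02 to 0.48, adjusted p = 0.138). An exact permutation test over all 15400 divisions of the 12 mice into 4 groups of 3, run for each of the 10 genes, gave p = 0.011 for Sdc1 and p = 0.063 for Irf4, before any adjustment. The call in B+Con-FMT relative to Con-sa was lost without Con-sa mouse 2 (log2 -0.35, adjusted p = 0.090) and without any 1 of the 3 B+Con-FMT mice (-0.45 each, adjusted p = 0.059 to 0.066), and the call among the 4 groups was lost without any 1 of the 3 B+Con-FMT mice. It was also lost with curated transcripts only (log2 -0.31, adjusted p = 0.310). In that sum Con-sa mouse 3 fell from 4.62 to 2.84 RPKM, since 1.78 of its RPKM lay on the predicted model XM_006515046.2, which is listed at 0 in the other Con-sa and all B+Con-FMT mice.

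Tnfrsf17 encodes BCMA, the receptor through which plasma cells take survival signals. It measured 2.69, 4.93 and 2.36 RPKM in Con-sa, 1.45, 1.57 and 2.52 in B-sa, 2.09, 2.57 and 1.98 in B+Con-FMT, and 2.46, 2.10 and 2.53 in B+A10-FMT. Con-sa mouse 2 was far above the next mouse, and B-sa mice 1 and 2 were the lowest. The log2 fold change of -0.58 in B-sa relative to Con-sa (95% interval -0.995 to -0.16, limma adjusted p = 0.063) was not called. It passed without B-sa mouse 3 (-0.74, adjusted p = 0.036) or without Con-sa mouse 3 (-0.74, adjusted p = 0.045), and shrank to -0.33 (adjusted p = 0.190) without Con-sa mouse 2.

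**Figure D4:**
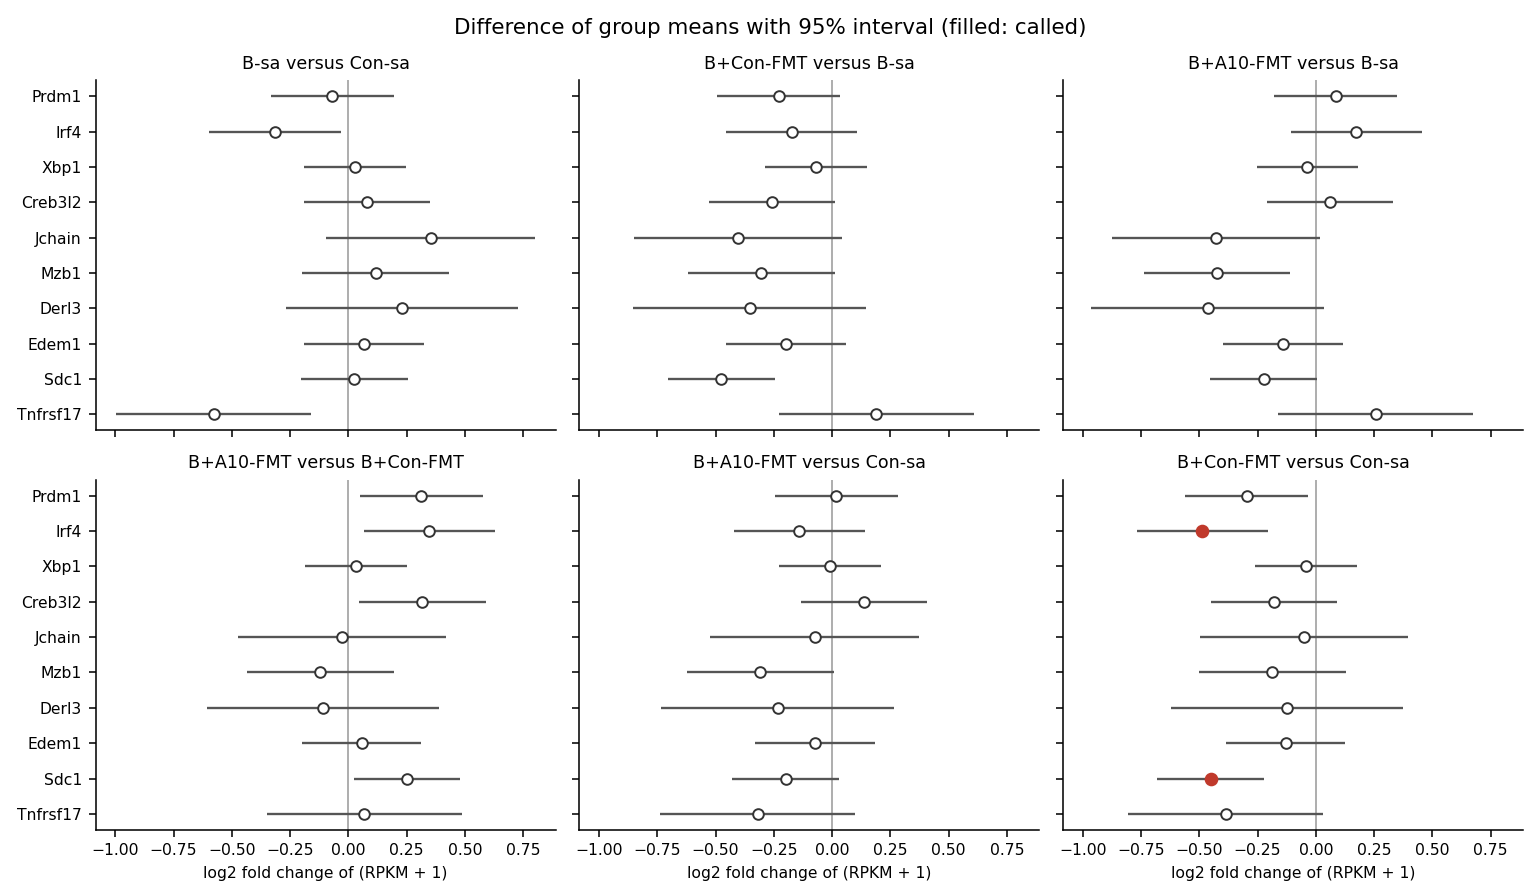
Log2 fold change of RPKM + 1 (horizontal axis, the same in all panels) of each plasma cell gene in the 6 comparisons, as the point, with the 95% interval of the limma fit as the line. Filled points are called at an adjusted p under 0.05. The only filled points are Irf4 and Sdc1 in B+Con-FMT relative to Con-sa, at -0.49 and -0.45.

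Taken comparison by comparison, busulfan alone left the 10 genes without a call. In B-sa relative to Con-sa 0 of 10 were called by limma, where 14.5% of all genes tested were called, and 2 of 10 (Irf4 and Tnfrsf17) had an unadjusted p under 0.05, beside 31.3% of all genes. No gene of the 10 had B-sa mice separated from Con-sa mice, against 34.0% of all genes tested. Their median log2 fold change was 0.05, beside -0.04 over all genes tested, and 7 of 10 were above 0, beside 40.2% of all genes.

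Relative to B-sa, 0 of 10 were called in the B+Con-FMT mice, where 0.844% of all genes were, with Sdc1 alone at an unadjusted p under 0.05, beside 18.4% of all genes. The median log2 fold change was -0.24, beside -0.004 over all genes, and 9 of 10 genes were below 0, beside 51.5% of all, Tnfrsf17 being the exception. The mice did not overlap for Creb3l2, Jchain and Sdc1, lower in all 3, against 9.05% of all genes tested that were lower without overlap. For the B+A10-FMT mice, also set against B-sa, 0 of 10 were called, where 5.27% of all genes were. Mzb1 alone was separated, being lower, against 7.38% of all genes tested, and alone had an unadjusted p under 0.05, beside 24.5% of all genes, and the median log2 fold change was -0.09, beside 0.05 over all genes.

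Between the 2 FMT groups, 0 of 10 were called in B+A10-FMT relative to B+Con-FMT, where 10.4% of all genes were called. In that comparison 4 of 10 genes, Creb3l2, Irf4, Prdm1 and Sdc1, were higher in every B+A10-FMT mouse than in any B+Con-FMT mouse, and the same 4 had an unadjusted p under 0.05, beside 28.9% of all genes. Of all genes tested, 23.8% were higher without overlap. The other 6 genes had log2 fold changes between -0.12 and 0.07. Set against Con-sa, the B+A10-FMT mice had 0 of 10 genes called, where 0.41% of all genes were. None was separated, against 21.6% of all genes tested, none had an unadjusted p under 0.05, beside 13.5% of all genes, and the lowest log2 fold change was -0.32, in Tnfrsf17.

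Against Con-sa, 2 of 10 genes were called in B+Con-FMT: Irf4 and Sdc1, both lower, where 8.87% of all genes were called and 6.57% were called lower. All 10 log2 fold changes were below 0, as were 60.0% over all genes tested, with a median of -0.18, beside -0.04 over all genes tested. Irf4, Prdm1 and Sdc1 did not overlap between the groups, against 23.6% of all genes that were lower without overlap. The comparisons share their groups and are not independent of each other, and exact permutation tests of 3 mice against 3 cannot go below p = 0.1.

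Genes of pancreatic acinar cells, which make digestive enzymes, were highest in the B+Con-FMT group. The 31 genes of the list summed to 11410 to 18350 RPKM in B+Con-FMT, 631 to 13560 in B+A10-FMT, 656 to 4685 in the B-sa mice and 1810 to 9769 in the Con-sa mice. The lowest of the B+Con-FMT sums was above the highest of the Con-sa sums. The genes of the list moved together from mouse to mouse: of the 27 tested, 27 were above their group mean in Con-sa mouse 2 and 0 in Con-sa mouse 3. The acinar factor Ptf1a was at 0.43 to 0.68 RPKM in B+Con-FMT and at most 0.29 elsewhere, and Ptf1a and Prss1 were listed at 0 in at least 1 mouse, but no gene of the list in all mice. Of the 27 acinar genes tested, 0 were called by limma in any comparison. An unadjusted p under 0.05 was found for 1 of them in B+Con-FMT relative to Con-sa (median log2 fold change of the list 1.83), for 25 relative to B-sa (3.21) and for 16 in B+A10-FMT relative to B+Con-FMT (-2.79), and for 0 in the other comparisons. Over all genes tested the first 3 shares were 27.4%, 18.4% and 28.9%. With the mean level of these genes as a covariate, Irf4 (log2 -0.60, limma adjusted p = 0.024) and Sdc1 (-0.49, adjusted p = 0.034) were called in B+Con-FMT relative to Con-sa. In that fit 952 of 12671 genes tested were called. The acinar level went with the group, since 29 of the 31 genes had their highest mean in B+Con-FMT. The part of either in the Irf4 and Sdc1 differences was not tested. Kidney genes went with the Con-sa group, at a summed 77.3 to 119 RPKM against 0.71 to 63.9 in the other groups, and their part in the results was not tested.

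In the Con-sa and B-sa groups, single mice stood high or low for nearly all of the plasma cell genes. Con-sa mouse 2 was the highest of its group for 10 of 10 genes and Con-sa mouse 3 was the lowest for 9 of 10. B-sa mouse 2 was the lowest of its group for 9 of 10, all but Tnfrsf17. On log2(RPKM + 1), the 10 genes of Con-sa mouse 2 were on average 0.27 above their group mean and those of B-sa mouse 2 were 0.25 below it. The same tallies of highest and lowest came out with equal totals outside the globin genes and with median-of-ratios scaling, for both mice. The FMT groups were mixed: B+Con-FMT mouse 3 was highest of its group for 4 genes and lowest for 4, and the largest tallies were 6 highest (B+Con-FMT mouse 2 and B+A10-FMT mouse 1) and 6 lowest (B+A10-FMT mouse 2). The B+Con-FMT mice differed least among themselves, with average deviations between -0.05 and 0.03. After the group means were taken out, Pearson's r over the 12 mice was above 0 for all 45 pairs of the 10 genes, with a median of 0.73. The highest was 0.96, between Mzb1 and Derl3, and the lowest was 0.24, between Sdc1 and Creb3l2. These values are a description, and the points share their libraries.

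**Figure D5:**
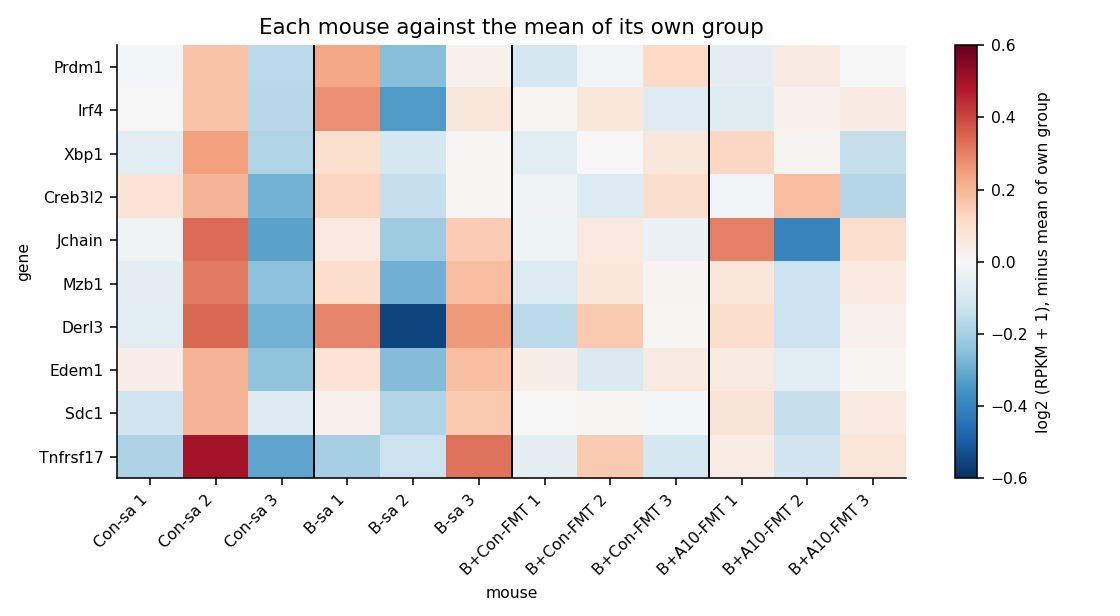
Log2(RPKM + 1) of each plasma cell gene (rows) in each mouse (columns) minus the mean of the mouse's own group, red above and blue below, with black lines between the groups. Con-sa 2 is red in all 10 rows, B-sa 2 is blue in all 10, and B+Con-FMT mice are pale.

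The genes around them shared part of this. Of 61 other genes of the ER secretory pathway, 52 were above their group mean in Con-sa mouse 2 and 10 in B-sa mouse 2. Of 17 genes of B cell identity, 16 were above it in Con-sa mouse 2 and 0 in B-sa mouse 2. The acinar genes were on average 1.16 above the group mean in Con-sa mouse 2 and 0.20 below it in B-sa mouse 2, on the log2 scale. In B-sa mouse 3 they were 1.21 below it while the plasma cell genes were 0.14 above. In B+A10-FMT mouse 3 the acinar genes were 2.59 above it and the plasma cell genes 0.007 above. The part of the acinar genes in this was not tested.

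The genes most alike in pattern over the 12 mice, as a description by Pearson's r on log2(RPKM + 1), included members of the set itself. Mzb1 was nearest to Derl3 (r = 0.95) and Derl3 to Mzb1, followed for Mzb1 by Eaf2 (0.90), an elongation cofactor, and Pon3 (0.88), and for Derl3 by Hsp90b1 (0.91), a chaperone of the ER, and Eaf2 (0.87). Jchain was nearest to Melk (0.86), Slpi (0.85) and Mzb1 (0.84). Xbp1 was nearest to Pdia4 (0.86) and Dnajc3 (0.85), both of ER folding, and to Fig4 (0.83). Creb3l2 stood near Tomm70a (0.95), Stt3a (0.92) and Srp72 (0.91), of which the last 2 act in glycosylation and entry into the ER. Among the 3 nearest to Sdc1 was the plasma cell surface gene Slamf7 (0.88), and among the 3 nearest to Irf4 were Fndc3a (0.96) and Btk (0.96). Prdm1 was nearest to Cse1l (0.95), Milr1 (0.93) and Zfp994 (0.93). For Edem1 they were Pon3 (0.90), Tmsb15b1 (0.89) and Yipf5 (0.85), and for Tnfrsf17 H2-DMb2 (0.88), Mon2 (0.87) and Rragc (0.87).

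Further plasma cell genes were read from another list. Of its 21 genes, 20 were tested, and 1 was called in B-sa relative to Con-sa, beside 14.5% of all genes: Sec11c, a subunit of the signal peptidase, was higher (log2 0.31, limma adjusted p = 0.0055), at 125 ± 6.9 against 101 ± 3.9 RPKM (SD, n = 3). It was also called higher in B+Con-FMT relative to Con-sa (0.27, adjusted p = 0.010) and lower in B+A10-FMT relative to B-sa (-0.31, adjusted p = 0.0094) and relative to B+Con-FMT (-0.27, adjusted p = 0.0099). Fkbp11, a folding enzyme of the ER, was lower in B+A10-FMT relative to B-sa (-0.70, adjusted p = 0.039). In B+Con-FMT relative to Con-sa, Txndc5, an ER oxidoreductase, was lower (-0.36, adjusted p = 0.022), as was Tnfrsf13b, the receptor TACI (-0.33, adjusted p = 0.023). That made 3 of 20 called there, beside 8.87% of all genes, 2 of 20 in B+A10-FMT relative to B-sa, beside 5.27%, and 1 of 20 between the FMT groups, beside 10.4%. None of the 20 was called in B+Con-FMT relative to B-sa or in B+A10-FMT relative to Con-sa, where 7 and 4 had an unadjusted p under 0.05, beside 18.4% and 13.5% of all genes.

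Of the 61 genes of the ER secretory list, all tested, 3 were called higher and 1 lower in B-sa relative to Con-sa, the leading ones being Atf6 (log2 -0.27, limma adjusted p = 0.036), a sensor of ER stress, Spcs2 (0.25, adjusted p = 0.012) and Atf4 (0.22, adjusted p = 0.028), a stress factor. These 4 of 61 stand beside 14.5% of all genes tested. Of this list, 2 genes were called higher in B+Con-FMT relative to Con-sa, Manf (0.35, adjusted p = 0.029), a secreted ER stress protein, and Atf4, and 2 were called lower, Ern1, the enzyme that cuts Xbp1 (-0.54, adjusted p = 0.036), and Atf6 (-0.37, adjusted p = 0.015), beside 8.87% of all genes. Ern1 stood at 4.81 ± 1.16 RPKM in Con-sa, 3.37 ± 0.71 in B-sa, 2.94 ± 0.18 in the B+Con-FMT mice and 4.36 ± 0.49 in the B+A10-FMT mice (SD, n = 3), so that its order differed from that of the spliced Xbp1 form, which was highest in B-sa. Between the FMT groups 7 of 61 were called, beside 10.4% of all genes, all lower in B+A10-FMT, led by Atf4 (-0.33, adjusted p = 0.0079), Manf (-0.30, adjusted p = 0.046) and Ddit3 (-0.29, adjusted p = 0.036). The median log2 fold change of the list was between -0.05 and 0.06 in all 6 comparisons.

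Of the B cell identity genes, 10 of 17 were called in B-sa relative to Con-sa, beside 14.5% of all genes tested, all lower, with a median log2 fold change of -0.32, among them Ebf1 (-0.46, limma adjusted p = 0.015), Cd22 (-0.45, adjusted p = 0.0080) and Cd79b (-0.43, adjusted p = 0.0051), a chain of the B cell receptor complex, while the median of the 10 plasma cell genes was 0.05. In B+Con-FMT relative to Con-sa 6 were called lower and 1 higher, beside 8.87% of all genes called and 6.57% called lower. The median log2 fold change of the list was -0.25 there. Between the FMT groups 3 of 17 were called, beside 10.4% of all genes, all lower in B+A10-FMT. Among them were Tnfrsf13c, the receptor of the survival factor BAFF (-0.32, adjusted p = 0.026), and Pax5, the factor that keeps B cell identity (-0.285, adjusted p = 0.030). The list as a whole had a median log2 fold change of 0.003 in that comparison, with 9 of 17 genes above 0, beside 61.2% of all genes. A difference between the B cell list and the plasma cell genes was not tested. Of 12 genes for immunoglobulin constant regions, whose transcripts are the most abundant of plasma cells, 0 were among the gene identifiers used here, and they were not analysed.

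Signals that help plasma cells to form and survive were read from a list of 19 genes, of which 14 were tested. In B-sa relative to Con-sa 3 were called, beside 14.5% of all genes, all lower: Cxcl12, the chemokine that holds plasma cells in their niche (log2 -0.29, limma adjusted p = 0.039), Il6st, the signal chain of the IL-6 receptor (-0.28, adjusted p = 0.0094), and Cd40 (-0.25, adjusted p = 0.026). Cxcl12 stood at 311 ± 30.1 RPKM in B+A10-FMT, 250.2 ± 32.5 in the B+Con-FMT mice, 229 ± 6.3 in B-sa mice and 280.4 ± 11.3 in Con-sa mice (SD, n = 3), and was called higher in B+A10-FMT relative to B-sa (0.44, adjusted p = 0.017). Il6st was higher in B+A10-FMT relative to B-sa (0.35, adjusted p = 0.0075) and relative to B+Con-FMT (0.40, adjusted p = 0.0021). Of the 14 genes, 3 were called higher and 1 lower in the first of these comparisons, beside 5.27% of all genes, and 4 higher and 1 lower in the other, beside 10.4%, the lower one being Cxcr4, the receptor of Cxcl12, in both. For B+Con-FMT relative to Con-sa, Cd40lg (0.43, adjusted p = 0.039) and Cd80 (0.25, adjusted p = 0.049), both of T cell help, were called higher and Il6st lower (-0.33, adjusted p = 0.0059), beside 8.87% of all genes. Tnfsf13, which encodes APRIL, a ligand of the Tnfrsf17 receptor, was higher in B+A10-FMT relative to B+Con-FMT (0.32, adjusted p = 0.031), while Tnfrsf17 itself differed there by 0.07 (95% interval -0.35 to 0.49). Cxcr4 was also lower in B+A10-FMT relative to Con-sa (-0.41, adjusted p = 0.027), the only 1 of the 14 called there, beside 0.41% of all genes. In that comparison 7 of the 14 had an unadjusted p under 0.05, beside 13.5% of all genes.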

How the data were processed

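Spleen RNA of 12 male ICR mice was sequenced as poly(A)-enriched libraries, and 4 groups of 3 were taken from the sample labels. The authors deposited RPKM for 60654 RefSeq transcripts (24036 NM, 32604 XM and 4014 XR models) in 1 table per mouse. The study's methods name SOAPaligner and an Illumina sequencer, whereas the submitters' processing notes name HISAT, Bowtie2 and the build mm10 and the labels name BGISEQ libraries, so how reads were mapped and shared between models is not settled. Transcripts were summed to 18221 genes by Entrez identifier, and 18101 identifiers were matched to symbols. Genes reaching 1 RPKM in 3 or more mice (12671) were tested on log2(RPKM + 1), a pseudocount of 1, with limma 3.58.1 (trended, robust) in R 4.3.3, fitting all mice at once with 1 coefficient per group, two-sided, with Benjamini-Hochberg adjustment over all genes tested. Exact permutation tests were two-sided for pairs of groups. SDs are over 3 mice. Python 3.11.15, NumPy, pandas, SciPy and matplotlib were used for the rest.

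No read counts were used, so no count model was fitted, and the study's own DEGseq test was not run. Depth was estimated from the steps between low RPKM values of 1080 genes, and read numbers per transcript are estimates. On simulated data for B-sa versus Con-sa with 12671 genes, 149 of 200 genes changed by a log2 of 0.5 and 188 of 200 changed by 1 were called. The 10 genes and the further lists were chosen with earlier results of these data known. The genes named beyond the 10 were the 3 called genes of largest change per list and comparison, and the 3 genes nearest to each member by Pearson's r. Some genes that this rule picks are not reported here. Genes named outside this rule, the transcript models shown, the shares of models and the motifs were chosen after their values were seen. Sequences came from RefSeq promoters (GRCm38.p6) and GENCODE M21. Lists for T cell, NK cell and dendritic cell, epithelial, cell cycle and globin genes are given mainly with the other observations.

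The fits were repeated with NM transcripts only, with the acinar level as a covariate, leaving out each mouse, with median-of-ratios scaling, with the non-globin totals made equal, with the 2 groups compared alone, with a block for the replicate number, with 0.1 as pseudocount, on unfiltered genes and on genes reaching 1 RPKM in all mice. Fitting each transcript on its own was added after the data had been seen.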

Additional observations from a re-analysis of the deposited data

How the results depend on the processing

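No plasma cell gene was called in a direction opposite to another setting. With 10 genes in 6 comparisons, 522 of 540 differences kept sign and call under the settings that keep all mice, 4 lost the call, 6 gained one and 8 turned sign, none of these 8 called. With 1 mouse left out, 670 of 720 kept both, 12 lost the call, 6 gained one and 32 turned sign. Groups of 3 mice, single transcript models of low coverage and the missing read counts limit what can be seen, and small differences near 0 have no settled direction.

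In B+Con-FMT relative to B-sa, 0 genes were called and 1, Sdc1 (log2 -0.52), with equal totals (globin genes left out of the total). In B+A10-FMT relative to B+Con-FMT, 0 of the 10 were called, but 2 with NM transcripts only (Prdm1 and Irf4), 1 with equal totals (Irf4, 0.40) and 1 in the fit of the 2 groups alone (Irf4, 0.35, adjusted p = 0.023 by limma). Over all genes, 1312 of 12671 were called in the main fit, and 546 of 11598, 2339 of 12667 and 1041 of 12368 in these settings, in that order. The median log2 fold change of all genes was 0.046 in the main fit and 0.098 with equal totals. In B+Con-FMT relative to Con-sa, 2 of the 10 were called, and 1, Sdc1, with median-of-ratios scaling, with no filter and with the replicate block (Irf4 adjusted p = 0.068). Over all genes, 1124 of 12671 were called in the main fit, and 1131 of 12650, 875 of 18218 and 773 of 12671 in these settings, in that order. For a difference among the 4 groups 1 of the 10 was called, beside 17.1% of all genes in the main fit, and 2 with NM transcripts only, with the acinar covariate and with equal totals. With 1 mouse left out, 0 to 1 genes were called in B-sa relative to Con-sa, 0 to 1 in B+Con-FMT relative to B-sa, 0 to 1 in B+A10-FMT relative to B+Con-FMT, where Irf4 passed without B-sa mouse 1 (adjusted p = 0.049) or 2 (0.029), 0 to 2 in B+Con-FMT relative to Con-sa, and 0 to 3 among the 4 groups. The cause of these shifts was not tested.

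Replicate numbers did not pair the mice: same-numbered mice had mean correlations of their deviations between -0.17 and 0.18 over the 6 comparisons, and in none were all 3 pairs above 0.1. The replicate block changed no other call of the 10 genes.

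Signs turned, with no call, for Prdm1 (0.004) and Edem1 (-0.17) in B-sa relative to Con-sa with NM transcripts only. They turned in B+A10-FMT relative to B+Con-FMT for Jchain (0.11) and Derl3 (0.039) with the acinar covariate, for Jchain (0.032) with equal totals and for Xbp1 (-0.018) with median-of-ratios scaling, and in B+Con-FMT relative to Con-sa for Jchain (0.002) and Xbp1 (0.009) with that scaling. With 1 mouse left out, these log2 differences crossed 0. In B-sa relative to Con-sa they ran from -0.064 to 0.15 for Xbp1, -0.18 to 0.061 for Prdm1, -0.053 to 0.13 for Sdc1, -0.007 to 0.27 for Mzb1, -0.064 to 0.18 for Creb3l2 and -0.051 to 0.20 for Edem1. For B+A10-FMT relative to B-sa they were from -0.10 to 0.035 for Xbp1, -0.043 to 0.20 for Prdm1 and -0.032 to 0.15 for Creb3l2. Between the FMT groups they ran from -0.18 to 0.18 for Jchain and -0.03 to 0.10 for Xbp1. The range for B+A10-FMT relative to Con-sa was from -0.24 to 0.13 for Jchain, -0.10 to 0.11 for Xbp1, -0.064 to 0.10 for Prdm1, -0.004 to 0.24 for Creb3l2 and -0.19 to 0.03 for Edem1. The range for B+Con-FMT relative to Con-sa was from -0.21 to 0.12 for Jchain, -0.13 to 0.081 for Xbp1 and -0.27 to 0.05 for Derl3.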

Other observations

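Values set in relation to the B cells were looked at after the data had been seen and are given with no test. Jchain RPKM over that of Cd79a, a chain of the B cell receptor complex, was 0.617, 0.743 and 0.449 in the Con-sa mice and 0.884, 0.870 and 1.08 in the B-sa mice. It was 0.636, 0.659 and 0.666 in B+Con-FMT and 0.826, 0.504 and 0.690 in B+A10-FMT, so the B-sa mice were the 3 highest of the 12. Mzb1 over Cd79a was 0.305, 0.368 and 0.240 in Con-sa, 0.394, 0.356 and 0.477 in B-sa, 0.282, 0.305 and 0.318 in B+Con-FMT, and 0.304, 0.263 and 0.289 in B+A10-FMT, and here Con-sa and B-sa overlapped. Cd79a itself had a mean of 709 RPKM in Con-sa, 569 in B-sa, 619 in the B+Con-FMT mice and 602 in the B+A10-FMT mice, so either part of the ratio can set it.

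Of 13 tested genes of T cells, NK cells and dendritic cells, 4 were called in B-sa relative to Con-sa by limma, beside 14.5% of all genes tested, all lower. Among them were Ncr1 of NK cells (log2 -1.45, adjusted p = 0.0022), at 12.9 ± 0.36 RPKM in Con-sa and 4.07 ± 0.21 in B-sa (SD, n = 3), and Siglech of plasmacytoid dendritic cells (-0.76, adjusted p = 0.0027). In B+Con-FMT relative to B-sa 2 of the 13 were called, beside 0.844% of all genes, Siglech lower (-0.55, adjusted p = 0.023) and Cd3e, a chain of the T cell receptor complex, higher (0.48, adjusted p = 0.049). In B+A10-FMT relative to B+Con-FMT 2 were called, beside 10.4% of all genes, both higher, Siglech (0.90, adjusted p = 0.00055) and Itgax of dendritic cells (0.34, adjusted p = 0.016). Set against Con-sa, 1 was called higher (Cd3e) and 5 lower in B+Con-FMT, beside 8.87% of all genes, and 1 lower (Ncr1) in B+A10-FMT, beside 0.41%. None of the 13 was called by limma in B+A10-FMT relative to B-sa, beside 5.27% of all genes. An unadjusted p under 0.05 was found there for 4 of them, beside 24.5% of all genes. Of 10 cell cycle genes, 8 were called higher in B-sa relative to Con-sa, beside the same 14.5% of all genes called in either direction, led by Plk1 (0.47, adjusted p = 0.0046) and Ccna2 (0.41, adjusted p = 0.0079). Of 8 tested epithelial and mesothelial genes, 1 was called lower in B+A10-FMT relative to B-sa, Krt19 (-0.73, adjusted p = 0.049), beside 5.27% of all genes, and of 7 tested globin genes 3 were called higher and 2 lower in B-sa relative to Con-sa, beside 14.5% of all genes. The lower ones were the beta-globin genes Hbb-bs, at 30510 ± 13570 RPKM in Con-sa and 19.0 ± 10.8 in B-sa (SD, n = 3; log2 -10.63, adjusted p = 0.014), and Hbb-bt (-8.82, adjusted p = 0.017). Hbb-bs stood at 8330 ± 11090 in the B+Con-FMT and 10920 ± 2174 in the B+A10-FMT mice, so its spread within B+Con-FMT exceeded its mean. The beta-globin gene Hbb-b1 was higher in B-sa relative to Con-sa (1.53, adjusted p = 0.022). These genes are near-identical copies carried in different combinations by mouse strains, so reads may be divided unevenly between them, and ICR is an outbred stock. The part of either in these differences was not tested.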
